A study of Mus musculus with 12 samples.

Results

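The 8 genes described here belong to the cholesterol synthesis programme that the transcription factor SREBP2 drives: Srebf2, Insig1, Hmgcs1, Idi1, Fdft1, Sqle, Lss and Cyp51. They were taken by symbol from a table of 18546 genes, and all 8 were found there. The study measured total RNA from mouse hematopoietic stem cells (HSCs), the bone marrow cells that renew themselves and give rise to all blood lineages. The cells were sorted by flow cytometry as lineage-negative, Sca1+ and cKit+ cells that carried CD150 and lacked CD48, the SLAM gate for HSCs. There were 12 libraries from C57BL/6 mice aged 10 to 12 weeks, 3 of each of 4 genotypes. These were the compound mutant NrasG12D/+;Tet2+/-, the single mutants NrasG12D/+ and Tet2+/-, and wild type. NrasG12D is an activated form of the Ras GTPase and Tet2 an enzyme that oxidises methylated cytosine in DNA. How the Nras allele was switched on and which part of Tet2 the mutant allele lacks were not given in the sources used here, nor whether each library came from a single mouse. The p-values below therefore measure the spread between these libraries.

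Cells make cholesterol from acetyl-CoA through the mevalonate pathway, which also yields the isoprenoid lipids that anchor Ras proteins in membranes. SREBP2 is held in the endoplasmic reticulum with its escort SCAP while sterols are plentiful, because INSIG proteins retain the pair there. When sterols fall, SREBP2 travels to the Golgi, is cut by the proteases MBTPS1 and MBTPS2, and its released part enters the nucleus to raise transcription of the synthesis enzymes, of INSIG1 and of genes for cholesterol uptake. Because SREBP2 is controlled by cutting, mRNA of its targets reports on the pathway more directly than mRNA of Srebf2. All 8 genes are in synthesis or its control. None of them encodes an uptake receptor.

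SREBP2 binds the sterol regulatory element, which was searched in the promoters as TCACNCCAC on both strands, and it works there with the factor NF-Y, whose motif was searched as CCAAT. The E-box CACGTG, to which basic helix-loop-helix factors bind, was searched too. The promoters were RefSeq windows on GRCm38.p6 that ran from 250 bases before to 50 bases after each start, available for 6 of the 8 genes (Srebf2, Insig1, Hmgcs1, Idi1, Lss and Cyp51). The NF-Y motif was present in 6 of these 6 windows and in 37.4% of all 32851 promoter windows. The sterol element was present in 1, that of Hmgcs1, against 1.24% of all windows, and the E-box in 1, that of Insig1, against 7.15%. These are matches of letters, not shown sites of binding. The stretches before the start of Hmgcs1, Insig1 and Lss are shown with the matched letters in capitals. Hmgcs1 is shown because its window holds the sterol element. Insig1 and Lss were chosen for display after their values were seen, Insig1 because it moved with Hmgcs1 between libraries and Lss because it gave the only pair of genotypes without overlap. All 3 read 5′ to 3′ on the + strand, and the 5 capitals shared by all of them are the NF-Y motif on the opposite strand. The 9 capitals in Hmgcs1 are the sterol element and the 6 in Insig1 the E-box.
Hmgcs1, chr13:119690101-119690350: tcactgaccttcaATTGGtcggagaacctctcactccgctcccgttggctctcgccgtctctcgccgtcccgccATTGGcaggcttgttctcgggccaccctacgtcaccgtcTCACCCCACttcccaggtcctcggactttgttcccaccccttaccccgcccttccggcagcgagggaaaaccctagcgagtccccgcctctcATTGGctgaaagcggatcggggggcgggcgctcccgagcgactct
Insig1, chr5:28071162-28071362: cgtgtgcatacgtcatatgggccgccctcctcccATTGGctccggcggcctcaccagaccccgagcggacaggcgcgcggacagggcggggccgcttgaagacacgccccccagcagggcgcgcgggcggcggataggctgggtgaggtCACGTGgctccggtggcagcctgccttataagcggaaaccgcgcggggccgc
Lss, chr10:76531355-76531587: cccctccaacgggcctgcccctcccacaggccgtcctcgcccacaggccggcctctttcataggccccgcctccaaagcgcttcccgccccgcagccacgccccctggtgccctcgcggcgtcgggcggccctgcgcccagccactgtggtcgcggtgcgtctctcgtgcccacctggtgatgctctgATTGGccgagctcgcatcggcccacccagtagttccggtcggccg
In the Hmgcs1 stretch the sterol element lay from -137 to -129 of the RefSeq start, between NF-Y matches that begin at -176 and -45. No matches of different motifs overlapped in these stretches.

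Levels are given as RPKM, reads scaled to the length of the gene and to the reads of the library, so that genes can be set beside each other. The deposited log2 RPKM resolved into whole reads, which gave 19205045 to 36890942 reads in genes per library. HSC markers summed to 168 to 229 RPKM in the 12 libraries. Cd48, which the gate excludes, had 0 reads in 9 of 12 libraries and at most 1.28 RPKM. Of the other markers on its list of 4, Cd34 had 17.7 to 25.6 RPKM and Flt3 4.65 to 13.4 RPKM, neither of which is in the gate that the labels give, and the list summed to 27.2 to 36.7 RPKM. The marker lists of granulocytes and monocytes, erythroid cells and lymphoid cells, of which 5 of 8, 4 of 6 and 2 of 6 genes were in the table, summed to at most 8.62, 10.8 and 11.1 RPKM in any library, and Pecam1, the 1 of 5 stromal and endothelial markers in the table, had at most 7.66 RPKM. In sorted bulk cells, fewer cells of a type and less RNA per cell cannot be told apart. Tet2 itself averaged 4.98 ± 0.615 RPKM in compound mutants and 4.72 ± 0.579 RPKM in Tet2+/- libraries, against 5.71 ± 1.16 RPKM in NrasG12D/+ and 4.95 ± 0.0301 RPKM in wild type (SD, n = 3 each), so its total level did not separate the labels. Nras averaged 6.24 ± 0.981, 5.74 ± 0.882, 6.08 ± 0.778 and 5.58 ± 0.597 RPKM in compound, NrasG12D/+, Tet2+/- and wild-type libraries (SD, n = 3 each), and its total level cannot show a point mutation. By Xist and Y-linked genes 5 libraries were male and 7 female. NrasG12D/+ library 2 (3268) and wild-type library 1 (3824) had the most genes at 0 reads, and wild-type library 2 (1000) had the fewest.

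No difference between genotypes passed the test for any of the 8 genes. All 8 were above the minimum for testing, 1 RPKM in at least 3 libraries, which 15478 genes met. In each of 8 comparisons (the compound mutant against each other genotype, each single mutant against wild type, each allele averaged over the other locus, and the interaction of the alleles), 0 of 8 genes passed an adjusted p of 0.05 in limma's two-sided moderated test with Benjamini-Hochberg adjustment over all tested genes. The smallest adjusted p of any of the 8 genes was 0.872. The background was almost as empty: the share of all tested genes called was 0.00646% (1 gene) for each of the compound mutant, NrasG12D/+ and Tet2+/- against wild type and for the compound mutant against Tet2+/-. It was 0% for the compound mutant against NrasG12D/+ and for the Tet2 allele, 0.0129% (2 genes) for the interaction and 0.0323% (5 genes) for the Nras allele. At an unadjusted p under 0.05, 0 of 8 genes passed in any of the 8 comparisons. Of all tested genes, 6.42% passed that mark for the compound mutant, 5.61% for NrasG12D/+ and 3.35% for Tet2+/- against wild type. It was 4.04% for the compound mutant against NrasG12D/+, 5.45% for it against Tet2+/-, 3.38% for the interaction, 7.24% for the Nras allele and 3.81% for the Tet2 allele. At such shares, 0 among 8 genes is near the background. The voom test on the recovered reads also called 0 of 8 genes in every comparison.

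The 8 genes covered a wide span of abundance in HSCs. Srebf2 was by far the most abundant, with a mean of 75.2 ± 9.34 RPKM over the 12 libraries (SD), above 98.2% of tested genes. Insig1 followed with 16.8 ± 7.30 RPKM, then Hmgcs1 with 9.83 ± 3.92, Fdft1 with 7.35 ± 3.85, Cyp51 with 6.19 ± 1.99, Idi1 with 4.41 ± 1.04, Sqle with 2.92 ± 0.769 and Lss with 1.71 ± 0.671 RPKM (SD, n = 12 each). Within libraries, Srebf2 exceeded Insig1 in 12 of 12 and Insig1 exceeded Hmgcs1 in 11 of 12. Some neighbours in this order did not differ beyond their spread: Hmgcs1 over Fdft1 was a mean log2 difference in level of 0.55 ± 1.0, Fdft1 over Cyp51 0.08 ± 0.82 and Cyp51 over Idi1 0.46 ± 0.49 (SD over 12 libraries). The genes rested on 112 to 13414 reads per library. At each gene's mean number of reads, counting alone gives an SD of 0.0140 (Srebf2) to 0.0584 (Fdft1) on the log2 scale, and at the 112 reads of Fdft1 in wild-type library 1 it gives 0.136.

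**Figure D1:**
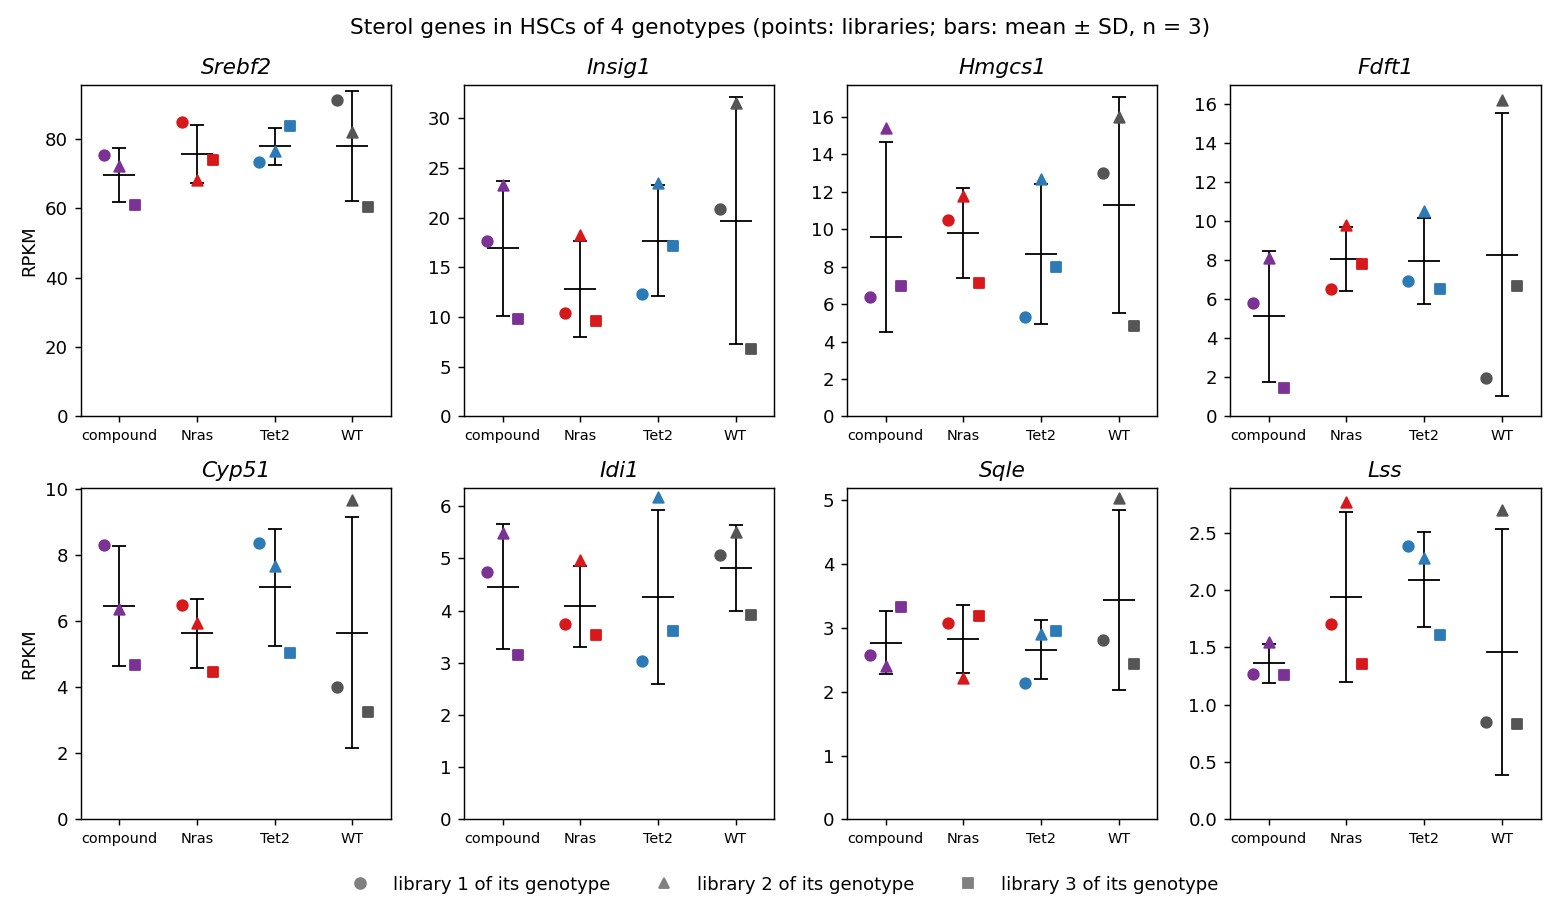
RPKM of each of the 8 genes (y axes, linear, from 0) in every library, by genotype: compound (NrasG12D/+;Tet2+/-), Nras (NrasG12D/+), Tet2 (Tet2+/-) and WT (wild type); points are libraries, their shape the library number, and bars the mean ± SD of 3. The genotypes overlap in nearly every panel, and for Hmgcs1, Idi1, Fdft1 and Insig1 the triangle, library 2, is the highest of its genotype in all 4.

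The regulators Srebf2 and Insig1 were the most abundant of the 8. Srebf2 encodes the precursor of SREBP2 on chromosome 15 (mm10, 82147181 to 82205379, + strand), and its span holds the microRNA gene Mir33. It had 75.4, 72.2 and 60.8 RPKM in compound mutants, 84.7, 68.2 and 73.8 in NrasG12D/+, 73.3, 76.4 and 83.6 in Tet2+/-, and 91.2, 82.0 and 60.3 in wild type. Wild type alone held the highest and the lowest library, so the groups overlapped throughout. Srebf2 was the steadiest of the 8 genes, with a residual SD of 0.20 on the log2 scale, and 11.5% of tested genes had a lower one. Its difference was accordingly the best bounded: -0.15 ± 0.16 (SE) for the compound mutant against wild type, with a 95% interval of -0.50 to 0.20, and -0.10 ± 0.11 for the Nras allele, with an interval of -0.35 to 0.15 (limma adjusted p = 0.872 and 0.880).

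Insig1, the SREBP2 target that retains SCAP and so closes the feedback loop, lies on chromosome 5 (28071363 to 28078662, + strand). It had 17.7, 23.3 and 9.85 RPKM in compound mutants, 10.4, 18.3 and 9.60 in NrasG12D/+, 12.3, 23.5 and 17.2 in Tet2+/-, and 20.9, 31.5 and 6.80 in wild type. The highest and the lowest library of the 12 were both wild type, 4.64-fold apart. The log2 difference was -0.05 ± 0.54 (SE) for the compound mutant against wild type and -0.43 ± 0.54 for NrasG12D/+ against wild type, where the 95% interval was -1.64 to 0.77 (limma adjusted p = 0.998 and 0.926).

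The early arm of the pathway was represented by Hmgcs1 and Idi1. Hmgcs1 encodes the cytosolic HMG-CoA synthase, an enzyme at the start of the mevalonate pathway, and lies on chromosome 13 (119690379 to 119708260, + strand). It had 6.36, 15.4 and 6.95 RPKM in compound mutants, 10.5, 11.8 and 7.11 in NrasG12D/+, 5.32, 12.7 and 7.96 in Tet2+/-, and 13, 16.0 and 4.81 in wild type. In all 4 genotypes library 2 was the highest, and the genotype means of 9.59 ± 5.08, 9.79 ± 2.41, 8.66 ± 3.74 and 11.3 ± 5.79 RPKM in compound, NrasG12D/+, Tet2+/- and wild type (SD, n = 3 each) lay closer together than libraries of any 1 genotype. The largest of its differences from wild type was that of Tet2+/-, -0.30 ± 0.51 (SE) on the log2 scale (limma adjusted p = 1.0).

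Idi1 encodes isopentenyl-diphosphate isomerase, which balances the 5-carbon units from which isoprenoids are built, and lies on the same chromosome (8885501 to 8892451, + strand). It had 4.73, 5.49 and 3.15 RPKM in compound mutants, 3.74, 4.96 and 3.53 in NrasG12D/+, 3.03, 6.17 and 3.60 in Tet2+/-, and 5.06, 5.50 and 3.91 in wild type. Library 2 was again the highest in each genotype. The log2 differences from wild type were -0.14 ± 0.32, -0.24 ± 0.32 and -0.23 ± 0.32 (SE) for compound, NrasG12D/+ and Tet2+/-, each smaller than its error (limma adjusted p = 0.958, 0.929 and 1.0).

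Fdft1 and Sqle carry out the steps that commit the pathway to sterols. Fdft1 encodes squalene synthase, which joins a pair of farnesyl-diphosphate molecules, and lies on chromosome 14 (63145150 to 63179578, - strand). It had 5.79, 8.10 and 1.46 RPKM in compound mutants, 6.52, 9.80 and 7.81 in NrasG12D/+, 6.92, 10.5 and 6.51 in Tet2+/-, and 1.96, 16.2 and 6.66 in wild type. A single compound library (3) and a single wild-type library (1) stood far below the rest, at 121 and 112 reads, and wild-type library 2 stood above them all at 1154 reads. Fdft1 therefore had the widest spread of the 8 genes, a residual SD of 1.04 on the log2 scale. Its differences had the widest errors of the 8 genes, and in the comparisons of the compound mutant and the interaction they were also the largest in size: -0.54 ± 0.76 (SE) for compound against wild type, -0.96 ± 0.76 against NrasG12D/+ and -0.93 ± 0.76 against Tet2+/- (limma adjusted p = 0.902, 1.0 and 0.970). The interval of its interaction ran from -3.74 to 1.05.

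Sqle encodes squalene epoxidase, a rate-limiting oxygen-requiring step, and lies on chromosome 15 (59315077 to 59331192, + strand). It had 2.58, 2.40 and 3.32 RPKM in compound mutants, 3.08, 2.22 and 3.19 in NrasG12D/+, 2.13, 2.90 and 2.95 in Tet2+/-, and 2.81, 5.04 and 2.43 in wild type. Wild-type library 2 was high and the other 11 libraries lay between 2.13 and 3.32 RPKM. The log2 differences from wild type were -0.25 ± 0.34 in compound, -0.22 ± 0.34 in NrasG12D/+ and -0.31 ± 0.34 in Tet2+/- libraries (SE; limma adjusted p = 0.898, 0.942 and 1.0). Leaving out wild-type library 2 turned these differences to 0.07, 0.10 and 0.01, so their direction rested on that library.

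The enzyme of Lss makes the first sterol of the pathway, and that of Cyp51 acts on it. Lss encodes lanosterol synthase, which closes the sterol rings, and lies on chromosome 10 (76531588 to 76557138, + strand). It had 1.27, 1.55 and 1.26 RPKM in compound mutants, 1.70, 2.77 and 1.35 in NrasG12D/+, 2.38, 2.28 and 1.61 in Tet2+/-, and 0.850, 2.70 and 0.832 in wild type. The 3 compound libraries all lay below the 3 Tet2+/- libraries, by -0.61 ± 0.52 (SE) on the log2 scale (limma adjusted p = 0.974). This was the only pair of genotypes without overlap for any of the 8 genes, 1 of 8 for this comparison where 12.7% of all tested genes did not overlap. In the other comparisons 0 of 8 genes failed to overlap, against 11.2% of tested genes for compound and wild type, 9.74% for NrasG12D/+ and wild type, 9.25% for Tet2+/- and wild type and 8.48% for compound and NrasG12D/+. Lss also had the lowest unadjusted p of the 8 genes, 0.140, for an interaction of -1.19 ± 0.74 (SE; limma adjusted p = 0.996). Its means were 1.36 ± 0.168 RPKM in compound, 1.94 ± 0.741 in NrasG12D/+, 2.09 ± 0.416 in Tet2+/- and 1.46 ± 1.07 in wild type (SD, n = 3 each). Without wild-type library 2 the log2 differences of the single mutants from wild type were 1.14 for NrasG12D/+ and 1.29 for Tet2+/-, in place of 0.58 and 0.73 with it, and neither passed the threshold. Lss overlaps an annotated antisense gene, 4930483K19Rik, over 11268 bases.

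Cyp51 encodes the lanosterol demethylase and lies on chromosome 5 (4081145 to 4104746, - strand). It had 8.32, 6.37 and 4.68 RPKM in compound mutants, 6.49, 5.95 and 4.47 in NrasG12D/+, 8.39, 7.67 and 5.04 in Tet2+/-, and 4.02, 9.67 and 3.25 in wild type. Wild-type library 2 was the highest of the 12 and the other wild-type libraries were the lowest. Its log2 differences from wild type were 0.33 ± 0.40 in compound, 0.15 ± 0.40 in NrasG12D/+ and 0.45 ± 0.40 in Tet2+/- libraries (SE; limma adjusted p = 0.888, 0.985 and 1.0), and without wild-type library 2 they were 0.80, 0.62 and 0.93. Several of the genes share bases with a gene on the opposite strand. Cyp51 shares 166 bases with Akap9, Fdft1 774 with Ctsb, Idi1 323 with Gm48574 and Hmgcs1 6190 with the antisense gene Gm48342. Srebf2 shares 2110 bases with Gm49502 on its own strand. The library kit keeps strand, but the strand setting of the counting was not given in the sources used here, so reads of these overlaps could belong to either gene.

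**Figure D2:**
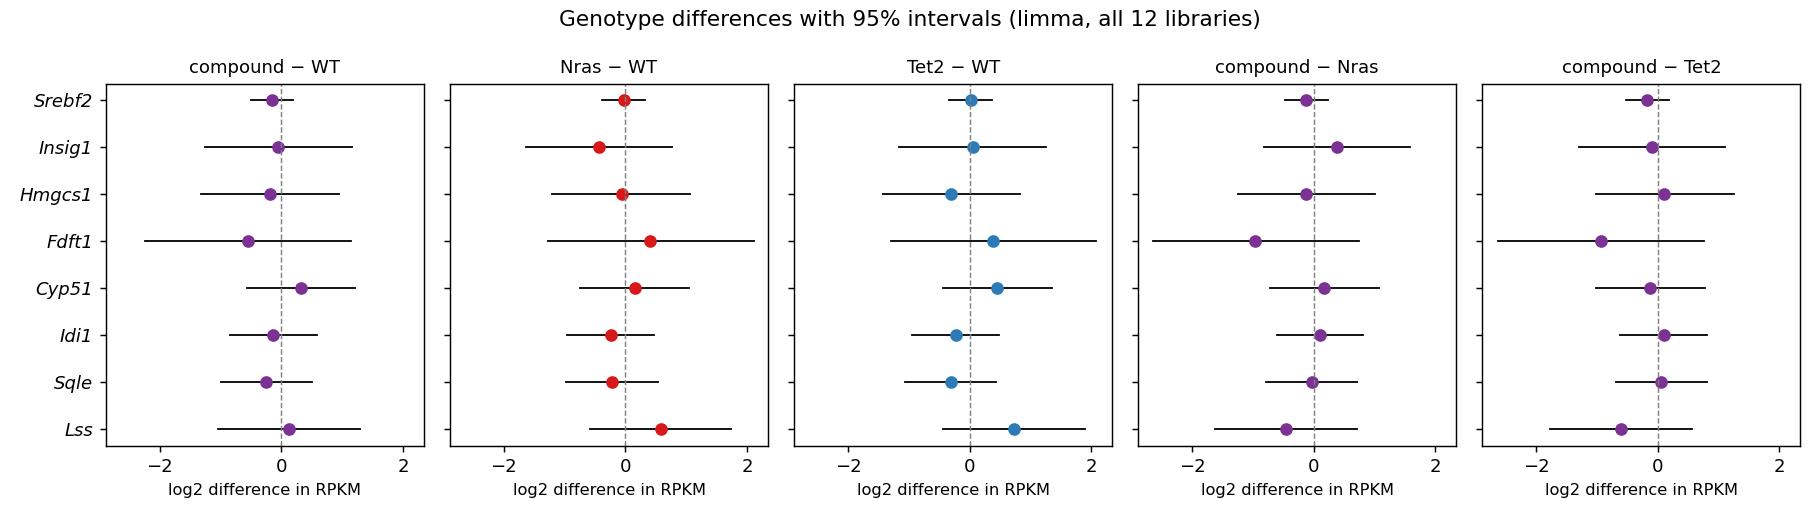
Log2 differences in RPKM (x axis) of the 8 genes (rows, by level) in 5 comparisons of genotypes; points are limma estimates from all 12 libraries and lines are 95% intervals. Every interval includes 0, the narrowest for Srebf2 and the widest for Fdft1.

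Taken as a list, the 8 genes had medians near 0. For the compound mutant against wild type 6 of 8 differences were negative with a median of -0.14 on the log2 scale, against 0.02 for all tested genes. For the Nras allele 6 of 8 were negative with a median of -0.08, against -0.01 for all tested genes, and for the Tet2 allele 5 of 8 with a median of -0.06, against 0.02.

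Among the other genes of the pathway none was called either. Leaving the 8 genes out of their lists, 5 genes of the mevalonate arm, 7 of the sterol arm, 6 of SREBP control, 8 of uptake and trafficking, 5 of efflux and storage, 9 of fatty acid synthesis and 9 of the isoprenoid branch were tested, and in each list 0 rose and 0 fell for either allele.

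Of the other pathway genes, Elovl6 (0.00833), Mylip (0.0387) and Vldlr (0.0458) had an unadjusted limma p under 0.05 in an allele comparison, short of the adjusted threshold. They were 2 of 8 tested genes of uptake and trafficking for the Nras allele and 1 of 9 of fatty acid synthesis for the Tet2 allele. Of all tested genes 7.24% and 3.81% passed that mark for these alleles. Over all the pathway lists the shares for these alleles were no higher. For the compound mutant against wild type, 3 of 8 genes of uptake and trafficking passed it, against 6.42% of all tested genes. So did 1 gene each of SREBP control and fatty acid synthesis, and 0 in the other pathway lists. Npc1, of uptake and trafficking, was picked out after its values were seen. It had 4.82 to 5.74 RPKM in wild type. Its range was 3.01 to 3.21 in compound, 2.87 to 4.79 in NrasG12D/+ and 2.92 to 4.29 in Tet2+/- libraries. Elovl6, a fatty acid elongase, averaged 8.24 ± 1.24 RPKM in compound and 8.34 ± 1.11 in Tet2+/- libraries, against 6.24 ± 0.766 in NrasG12D/+ and 6.23 ± 0.599 in wild type (SD, n = 3 each), a log2 difference of 0.41 ± 0.12 (SE) for the Tet2 allele (limma adjusted p = 0.963). Mylip, a ubiquitin ligase that limits lipoprotein uptake, averaged 15 ± 1.72 and 18.1 ± 8.88 RPKM in compound and NrasG12D/+, against 19.4 ± 5.10 and 27.7 ± 4.50 in Tet2+/- and wild type, a difference of -0.53 ± 0.22 for the Nras allele (limma adjusted p = 0.660). Vldlr, a lipoprotein receptor, averaged 4.95 ± 0.773 and 3.67 ± 1.08 RPKM in compound and NrasG12D/+, against 2.54 ± 0.818 and 3.58 ± 0.520 in Tet2+/- and wild type, a difference of 0.50 ± 0.22 for the Nras allele (limma adjusted p = 0.678). A gene outside the pathway passed the same test: Top2a, a DNA topoisomerase of dividing cells, rose to 41.7 ± 3.48 RPKM in compound and 39.0 ± 6.44 in NrasG12D/+ libraries, against 24.7 ± 0.158 in Tet2+/- and 22.8 ± 2.18 in wild type, 0.76 ± 0.09 (SE) on the log2 scale for the Nras allele (limma adjusted p = 0.0376). That call held in 9 of 22 other settings, with an adjusted p of 0.00487 to 0.144 and the same direction in each. Top2a was the only gene of the 14 in a list of G2 and mitosis genes past the threshold, with 13 of 14 differences above 0 and a median of 0.78. The median of the 8 sterol genes for this allele was -0.08, and the difference between both lists was not tested.

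Some of the 8 genes varied together between libraries, most closely Hmgcs1, Idi1 and Insig1 with each other and Cyp51 with Lss. Over the 12 libraries all 28 pairs of genes had a Pearson r above 0 in log2 RPKM, from 0.11 to 0.80 with a median of 0.34. Among all pairs of tested genes 51.0% were above 0, with a median of 0.01, and 17.8% reached 0.34. In deviations from genotype means 27 of 28 pairs were above 0, with a median of 0.44. When the 2 libraries farthest from the median of the pair's first gene were left out, 11 of 28 pairs were below 0, down to -0.57 for Sqle and Idi1 and -0.53 for Srebf2 and Fdft1, and the median was 0.18. The sign of 11 pairs thus did not hold without those libraries. Which libraries were left out depended on the pair's first gene, and removing its extremes narrows its range and can lower r. Whether the sign rested on any 1 set of libraries was not tested. The 12 libraries share genotype, sex and library number in part, so r is a description of these libraries. Of 28 pairs, 4 had a permutation p (100000 permutations, two-sided) that passed 0.05 after Benjamini-Hochberg adjustment over the 28, in genes that were chosen with earlier results of these data known, and 6 passed unadjusted. By Spearman's rho 2 pairs passed after adjustment, and some pairs were below 0, down to -0.10 for Srebf2 and Fdft1.

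Hmgcs1 and Insig1 were the closest pair, with r = 0.80 (permutation p = 0.00259, adjusted 0.0404) and Spearman's rho = 0.83 (permutation p = 0.00169, adjusted 0.0237). Leaving out the 2 libraries farthest from the median of Hmgcs1 gave r = 0.65, and deviations from genotype means gave 0.88. The 7 female libraries, all numbered 2 or 3, gave 0.99. That was the highest r of any pair in these libraries, and the lowest was -0.00 for Sqle and Idi1. Idi1 and Insig1 had r = 0.78 (permutation p = 0.00378, adjusted 0.0404) and rho = 0.83 (permutation p = 0.00150, adjusted 0.0237), and Hmgcs1 and Idi1 had r = 0.77 (permutation p = 0.00578, adjusted 0.0405) and rho = 0.76 (permutation p = 0.00608, adjusted 0.0567). Without the 2 farthest libraries r was 0.81 for Idi1 and Insig1 and 0.79 for Hmgcs1 and Idi1. The fourth pair, the late enzymes Cyp51 and Lss, had r = 0.77 (permutation p = 0.00433, adjusted 0.0404) and rho = 0.71 (permutation p = 0.0133, adjusted 0.0745), or 0.60 without the 2 farthest. Sqle and Srebf2 followed the others least, with r of 0.31 and 0.44 to the mean of the other 7 genes, against 0.83 for Insig1 and 0.73 for Hmgcs1. The number of pairs that passed depended on single libraries. Leaving out each in turn left 0 to 4 pairs, and 8 of 12 removals left none. The r of the 4 pairs moved less in these removals. It ran from 0.73 to 0.86 for Hmgcs1 and Insig1 and from 0.75 to 0.87 for Idi1 and Insig1. For Hmgcs1 and Idi1 it ran from 0.71 to 0.84, and for Cyp51 and Lss from 0.68 to 0.89.

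**Figure D3:**
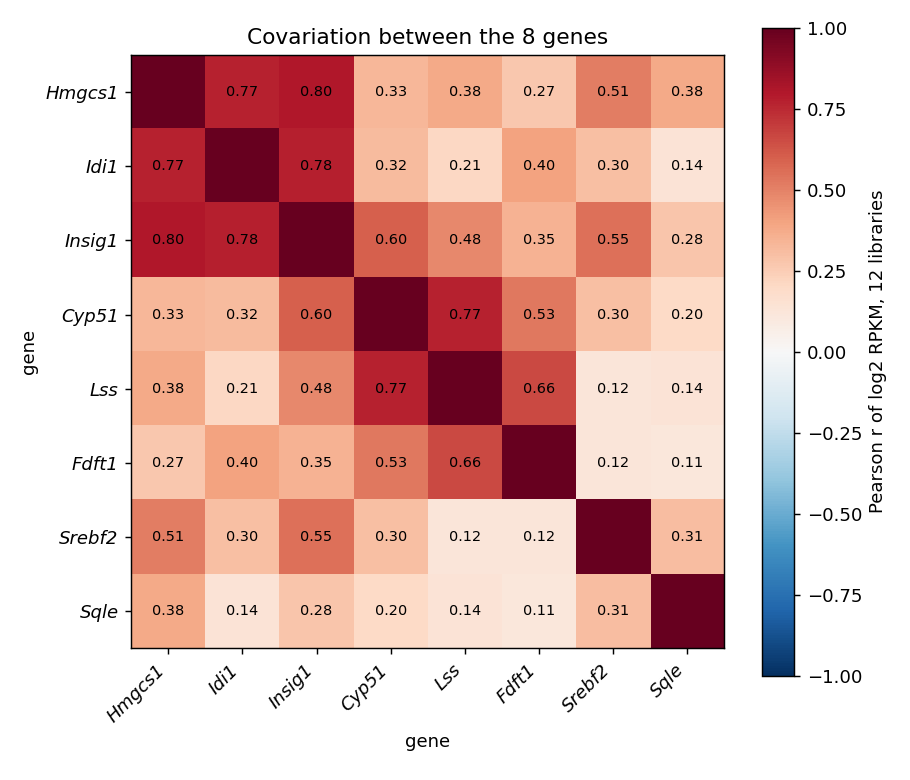
Pearson r of log2 RPKM over the 12 libraries for each pair of the 8 genes, printed in each cell and coloured from -1 (blue) to 1 (red); the diagonal is 1 by definition. Hmgcs1, Idi1 and Insig1 form the block of highest values, at 0.77 to 0.80, and Cyp51 and Lss pair at 0.77.

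**Figure D4:**
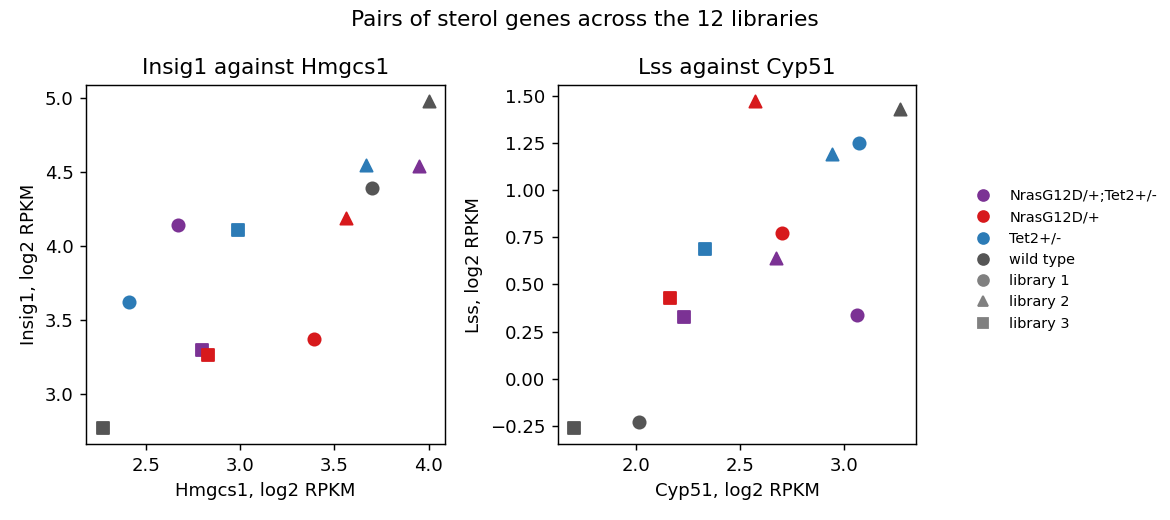
Log2 RPKM of Insig1 against Hmgcs1 and of Lss against Cyp51 in the 12 libraries; colour is the genotype and shape the library number. Wild-type libraries 2 and 3 stand at or near opposite ends of both plots, and the libraries of the other genotypes lie between them on both x axes.

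The levels followed in part the library number, 1 to 3, that ends each sample title. Library 2 was the highest of its genotype in all 4 genotypes for 4 of the 8 genes (Hmgcs1, Idi1, Fdft1 and Insig1), a pattern held by 1.85% of all tested genes. Number 2 was singled out after the values were seen, so this share is a description and not a test. Hmgcs1, Idi1 and Insig1 also varied together, so the 4 genes are not separate cases. It was highest in 3 of 4 genotypes for Lss, in 1 for Cyp51 and Sqle, and in 0 for Srebf2. The mean log2 excess of library 2 over libraries 1 and 3 was 1.19 for Fdft1, 0.95 for Insig1, 0.91 for Hmgcs1, 0.77 for Lss, 0.54 for Idi1 and 0.46 for Cyp51, against 0.09 for Sqle and -0.00 for Srebf2. In deviations from the means of each library number, r was 0.50 for Hmgcs1 and Insig1, 0.42 for Idi1 and Insig1 and 0.36 for Hmgcs1 and Idi1, while it was 0.72 for Cyp51 and Lss. In these deviations 8 of 28 pairs were below 0, down to -0.76 for Idi1 and Lss and -0.42 for Idi1 and Cyp51, with a median of 0.19. What a library number stands for is not given in the sources used here. Library 1 was male and library 2 female in every genotype, while of those numbered 3 the compound, NrasG12D/+ and wild-type libraries were female and the Tet2+/- library male.

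Averaged over the 8 genes after scaling each to its own mean and SD, wild-type library 2 stood highest at 1.42 and wild-type library 3 lowest at -1.17. Between them lay Tet2+/- library 2 at 0.75, compound library 2 at 0.35 and NrasG12D/+ library 2 at 0.23 above the mean, and compound library 3 at -0.91 and NrasG12D/+ library 3 at -0.36 below it. In Tet2+/- library 2 and wild-type library 2, 8 of 8 genes were above their means. In compound library 3 and wild-type library 3, 1 of 8 was. Among female libraries, number 2 thus stood above number 3 in each of the 3 genotypes that had both. The 5 male libraries lay between -0.31 and 0.10 and the 7 female libraries between -1.17 and 1.42. Over the 12 libraries this average had r = -0.38 with reads in genes, -0.18 with genes at 0 reads, -0.37 with the G2 and mitosis list and 0.64 with the list of HSC markers. Their part in the pattern was not tested.

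**Figure D5:**
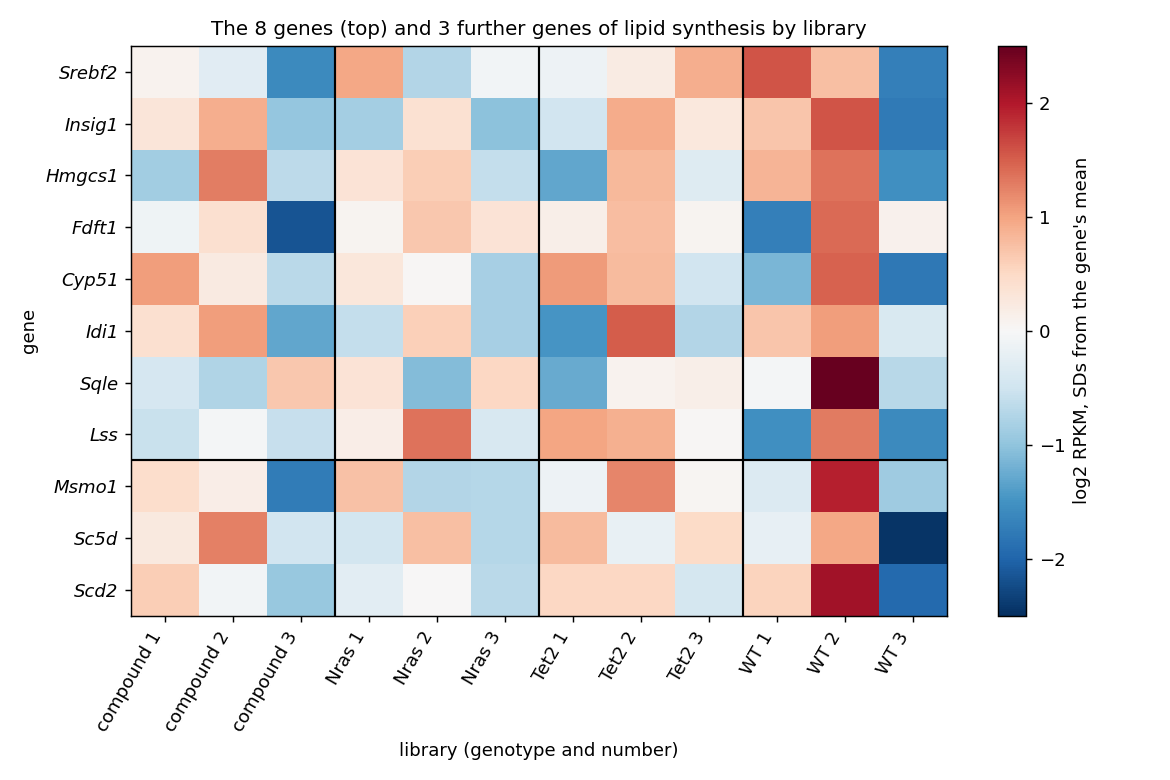
Log2 RPKM of the 8 genes (above the line) and of Msmo1, Sc5d and Scd2 (below it) in each library, as SDs from the gene's own mean over 12 libraries; vertical lines part the genotypes. Wild-type library 2 is above the mean for every row and wild-type library 3 below it for every row but Fdft1; the 3 lower genes were chosen for their r to the 8 genes.

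Genes outside the 8 were ranked by how closely they followed this average. Among the 5 tested genes with the highest r over the 12 libraries was Ltbp3, a protein that binds latent TGF-beta (0.89). Msmo1, a sterol methyl oxidase that acts later in the pathway than Cyp51 (0.87), was another. Scd2, a fatty acid desaturase (0.86), and the phosphatase gene Ptp4a1 (0.84) were also among them. Msmo1 had 2.13, 1.90 and 0.854 RPKM in compound mutants, 2.39, 1.30 and 1.31 in NrasG12D/+, 1.66, 2.93 and 1.81 in Tet2+/-, and 1.53, 3.96 and 1.21 in wild type. It too was highest in wild-type library 2. Sc5d, a further enzyme of the sterol arm, had an r of 0.68, and 3.26% of all tested genes outside the 8 had an r of at least 0.5. Of the tested genes outside the 8, 3 of 7 in the sterol arm, 1 of 5 in the mevalonate arm and 1 of 8 in uptake and trafficking reached 0.5, and the median r was 0.14, 0.17 and 0.14 in these lists. Sterol enzymes that did not follow the average were Nsdhl (0.14), Dhcr7 (0.10), Hsd17b7 (0.02) and Ebp (-0.16). Srebf1 (0.56) was 1 of 6 in SREBP control, Abcg1 (0.75) 1 of 5 in efflux and storage, and Scd2 and Fasn (0.55) 2 of 9 in fatty acid synthesis. In the isoprenoid branch and in the G2 and mitosis list 0 of 9 and 0 of 14 genes reached 0.5. Among the HSC markers Slamf1 (0.68) and Mecom (0.70) did, 2 of 9, and among the erythroid genes Hba-a1 (0.64), 1 of 4.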

How the data were processed

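Stranded libraries were made from total RNA after ribosomal and mitochondrial transcripts had been taken out, per the labels' protocols. The authors deposited 1 table of log2 RPKM per gene, a unit other than counts that was used as deposited; CASAVA 1.8.2, TopHat2, edgeR and the mm10 build are named in the submitters' processing notes, with no role given. Any filter the authors applied is not given in the sources used here.

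Genotypes came from the sample titles. Whole reads were recovered from the log2 values (tolerance 0.001 reads, mean prior 0.25 reads, 100% of genes whole) for depth and an added voom test, while limma 3.58.1 in R 4.3.3 (moderated test with a variance trend, 1 mean per genotype, 12 libraries) was fitted to the deposited log2 values, with Benjamini-Hochberg adjustment over all tested genes. Genes that did not reach 1 RPKM in 3 libraries (3068 genes) were left out. Errors of levels are SDs over libraries, those of log2 differences between genotypes are SEs from limma, and counting error is a lower limit. Positions are GENCODE on mm10, and promoters are RefSeq.

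All 8 genes are named; of the other lists, genes past the threshold or else the smallest p-values of the allele comparisons could be named, with the 5 genes most like the average of the 8. The other genes with r of at least 0.5 were added after their values were seen. Some results of genes outside the 8 are not reported here. The 8 genes and all lists were chosen with earlier results of these data known. Library numbers occur in each genotype. Of 18 pairs of same-numbered libraries 2 had deviations correlated over 0.1, and the main fit did not treat them as pairs. Yet 8 of 12 libraries correlated best with a library of their own number. Differences between library numbers therefore stayed in the residual spread of the main fit, and a fit with the replicate block is given below. The fit was tested on simulated data that were drawn independently for each gene and library. Spread shared between libraries of a number or a sex was not simulated.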

Additional observations from a re-analysis of the deposited data

How the results depend on the processing

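Under 23 other settings (no minimum, log2(RPKM + 0.5), median centring, quantile normalization, no variance trend, library weights, only the groups compared, the replicate block, each library left out, and, chosen after the data were seen, voom, sex as a covariate, and leaving out both libraries with the most genes at 0 reads), 0 of the 8 genes passed the threshold in any comparison. The smallest adjusted p was 0.565, for Cyp51 in compound mutants against wild type without wild-type library 2. With the replicate block 0 of 8 genes were called in each comparison, and 8 of 12 libraries correlated best with a library of their own number. Of 64 differences, 43 changed sign under at least 1 setting and 21 did not, and 25 of 1448 alternative values moved by more than 1 SE. Unadjusted p-values under 0.05 appeared for Lss and Cyp51 without wild-type library 2 (0.0179 for Cyp51 and 0.0220 for Lss in Tet2+/- against wild type) and for Insig1 and Srebf2 without wild-type library 3 (0.0335 and 0.0401). No scaling moved the median of all genes by more than 0.049 on the log2 scale. Counts of all genes called varied more, for example 17 in place of 1 for the compound mutant against wild type without wild-type library 2, and 20 by voom in place of 5 for the Nras allele; the cause was not tested. The number of gene pairs with an adjusted p under 0.05 was 4 under each scaling and 0 to 4 with a library left out. With 3 libraries a genotype, the 95% intervals of differences from wild type reached 1 log2 unit or more in at least 1 direction for 6 of the 8 genes (all but Srebf2 and Idi1), so differences of that size may go undetected at this depth of replication.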
